A study of Mus musculus with 16 samples.

Results

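Expression of 10 genes of the Wnt pathway was followed in C2C12, an established line of mouse myoblasts whose cells form multinucleate myotubes once serum is reduced. The genes were taken by symbol from the 35275 genes of the deposited table. They are the ligands Wnt4, Wnt9a and Wnt10a, the feedback genes Axin2 and Nkd1, the DNA-binding factors Tcf7, Lef1 and Tcf7l2, and the secreted antagonists Sfrp1 and Sfrp2. The 4 lines were 2 control populations, wild type per the labels, and 2 clones, called tKO for triple knockout, that lack miR-206 and both genes for miR-1a (miR-1a-1 and miR-1a-2). All cells were PAX7 negative per the labels. Every line was sampled while proliferating in growth medium with 20% fetal bovine serum (GM) and after 3 days of differentiation in medium with 2% horse serum (DM3), in 2 cultures each. Each of the 4 groups thus held 4 libraries of poly(A)-selected RNA. Each tKO line is a single clone, whereas the controls are populations, and the labels do not say how the cultures were separated, so p-values measure the spread between these libraries.

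Wnt proteins are secreted, lipid-modified ligands that bind Frizzled receptors and their co-receptors. In the canonical branch, receptor binding stops the destruction complex, in which Axin proteins are scaffolds, from degrading beta-catenin, which then acts with Tcf and Lef proteins on target genes. Axin2 is a widely used readout of that branch because it is both a target and an inhibitor of it. In muscle, Wnt signals are known for their part in forming the embryonic myotome and in the differentiation of satellite cells during repair.

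The deleted microRNAs belong to 1 family, whose members share a seed, the stretch that pairs with target messages. The mature mouse miR-206 sequence (RefSeq, GRCm38.p6, chr1:20679055-20679076, plus strand) is shown first, 5′ to 3′, with its seed (bases 2 to 8) in capitals. Below it, in the transcript sense, stand the matches found in the longest GENCODE M21 3′ UTR of each gene (GRCm38, all on the plus strand). Capitals mark the 7 matched bases, either ACATTCC, opposite bases 2 to 8, or CATTCCA, opposite bases 2 to 7 and followed by A.
mmu-miR-206-3p: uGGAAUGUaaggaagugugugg
Wnt10a, chr1:74803779-74803808: agatctgattgACATTCCtccgctcacctc
Lef1, chr3:131224237-131224266: cttaacgtttgtCATTCCAgtttgagttaa
Tcf7l2, chr19:55931777-55931806: acttcttccttACATTCCcacaactcgctg
Sfrp1, chr8:23449473-23449502: gaagatgttttACATTCCttctcattcctg
These 4 of the 10 genes had 1 match each, and the other 6 had none. Among all 21173 genes with an annotated 3′ UTR, 17.9% held at least 1 match, and among the 10811 of them that passed the expression filter used below, 20.1% did. A match is a description of letters and not a shown target site. Their sequences are given because the genotype comparison below can be read against them. Promoters were searched on both strands for the core motif of Tcf/Lef proteins, CTTTGA or CTTTGT followed by A or T, in the 250 bases before each RefSeq start. A core was found in 2 of the 13 windows of the 8 genes with an entry, against 14.8% of all 32851 windows. Both matches lay before internal starts, of Lef1 (chr3:131156044-131156293) and of Tcf7l2 (chr19:55895071-55895320), and none lay in a window of Axin2.

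The libraries held 22642563 to 56585952 fragments, as recovered from the steps of the FPKM values (fragments per kilobase of gene, scaled to the library's depth). Summed levels of 7 measured myotube genes were 9.12 to 12.6 FPKM in control GM and 851.6 to 1355 in control DM3. In tKO GM they were 10.8 and 73.1 FPKM in clone 1 and 19.2 and 26.9 in clone 2, so 3 of the 4 libraries lay above every control GM library. In tKO DM3 they were 1393 and 1437 in culture 1 of the clones and 340.4 and 478.5 in culture 2. Summed levels of 5 genes of cycling cells were 321 to 373.5 FPKM in control GM, and after differentiation 82.7 to 101.7 in the controls and 39.2 to 112.8 in the clones. For tKO GM these sums were 340.9 and 263.4 FPKM in clone 1 and 372.3 and 271.4 in clone 2. Culture 2 of both clones thus lay below every control GM library. Of the myoblast genes, Myf5 (8.94 to 27.2 FPKM), Des and Cdh15 were present in every library, but Myod1, a defining factor of myoblasts, was listed at 0 in all control GM libraries. Growing tKO libraries had at most 0.0546 FPKM of it. After differentiation its range was 0.746 to 2.75 FPKM for controls and 1.61 to 3.41 for the clones. Of the markers of other lineages, 3 of 5 adipocyte, 4 of 5 osteoblast, 4 of 4 endothelial and 2 of 3 haematopoietic genes stayed below 0.5 FPKM in every library. The exceptions were Fabp4 (up to 11.5 FPKM) and Cebpa (up to 4.24), known from fat cells, Runx2 (4.40 to 9.20), known from osteoblasts, and Cd68 (up to 3.98), known from macrophages. Genes of undifferentiated mesenchymal cells were not low as a list, with 2 of 5 below 0.5 FPKM in every library. Their summed levels were 371.2 to 686.1 FPKM in control GM and 240.9 to 554 in tKO GM. After differentiation these sums were 1066 to 1296 FPKM in the controls and 699.3 to 1825 in the clones. The deletion was not checked directly, since the rows of the microRNAs were not analysed here. For the transcript around Mir206, named mmu-mir-133b in the table, the fragments per library were 59 to 608 in differentiated controls, 14 to 152 in differentiated tKO cells and at most 4 in GM. In bulk RNA, fewer cells of a type and less RNA per cell cannot be told apart.

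Of the 10 genes, 7 had a mean of at least 0.5 FPKM over the 16 libraries and were tested, together with every other gene above that level, with limma on log2(FPKM + 1). Differences below are on that scale, which understates changes of low genes, with their standard error (SE) and a p-value adjusted by the Benjamini-Hochberg method over all 11832 tested genes. A gene was called when the adjusted p was under 0.05. Sfrp1, Sfrp2 and Nkd1 stayed under the filter and are described by their values.

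Differentiation of control cells moved 5 of the 7 tested genes. Axin2, Wnt10a and Wnt9a rose, and Wnt4 and Tcf7l2 fell, while Tcf7 and Lef1 were not called. Among all tested genes, 23.2% were called higher and 38.3% lower in this comparison, so a call alone is common here. For 5 of the 7 genes no DM3 library reached into the GM range, against 64.4% of all tested genes. The median difference was 0.42 over the 7 genes and −0.15 over all tested genes. Scaling by median-of-ratios size factors moved that median of all genes to 0.01, turned the split of calls from 2743 higher and 4529 lower to 3611 and 3631, and added Lef1 to the genes called higher (0.57, adjusted p = 0.0143). The calls of Wnt9a and Tcf7l2 were lost without control population 1 (adjusted p = 0.117 and 0.123), and those of Wnt9a, Wnt10a and Wnt4 without control population 2 (adjusted p = 0.0810, 0.0747 and 0.0502), while Axin2 kept its call both times.

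Wnt4 (chr4:137277489-137299726) encodes a ligand known for non-canonical signalling in several tissues and was the most abundant of the 3 ligands in control GM, at 7.33 and 6.34 FPKM in population 1 and 7.49 and 6.77 in population 2. In control DM3 it stood at 1.86 and 2.30 FPKM in population 1 and 1.81 and 2.29 in population 2. Every differentiated control library was below every growing one. Its mean fell from 6.99 ± 0.53 to 2.07 ± 0.27 FPKM (SD, n = 4), a difference of −1.38 ± 0.31 (SE, adjusted p = 0.00100). In tKO cells Wnt4 differed between the clones already in GM, at 2.70 and 4.83 FPKM in clone 1 and 11.03 and 11.3 in clone 2. In tKO DM3 it was 0.995 and 1.12 FPKM in clone 1 and 2.21 and 2.87 in clone 2. Within each clone both DM3 cultures were below both GM cultures, and the fall was called over the 4 tKO libraries (−1.48 ± 0.31, adjusted p = 0.00055).

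Wnt10a (chr1:74791516-74804179) encodes a canonical ligand best known from teeth and skin. In control GM it stood at 4.33 and 1.55 FPKM in population 1 and 4.08 and 1.92 in population 2, with culture 1 above culture 2 in both. In control DM3 the values were 14.4 and 8.76, and 14.4 and 13.2. The ranges were apart, and the rise in mean was 4.27-fold (1.84 ± 0.46 on the log2 scale, adjusted p = 0.0024). In tKO GM the values were 2.26 and 1.93 FPKM in clone 1 and 6.59 and 5.59 in clone 2. In tKO DM3 they were 9.84 and 12.2 in clone 1, inside the control range, and 46.1 and 44.8 in clone 2, above every other library. The rise over the 4 tKO libraries was called (2.34 ± 0.46, adjusted p = 0.00034).

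Wnt9a (chr11:59306928-59333552), a ligand known from joint development, changed least of the ligands. Control GM libraries ranged from 2.73 to 3.69 FPKM (median 3.19) and control DM3 libraries from 4.66 to 5.54 (median 4.92). The rise in controls was called (0.52 ± 0.15, adjusted p = 0.0052). In tKO cells the GM libraries already ranged from 3.31 to 5.55 FPKM (median 4.75), and the DM3 libraries from 3.72 to 5.02 (median 4.33). Those ranges overlapped and the difference was −0.05 ± 0.15 (adjusted p = 0.781). The test of whether the stage change differed between genotypes gave −0.57 ± 0.21, with an unadjusted p of 0.013 and an adjusted p of 0.312, so a difference between the genotypes was not shown.

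**Figure D1:**
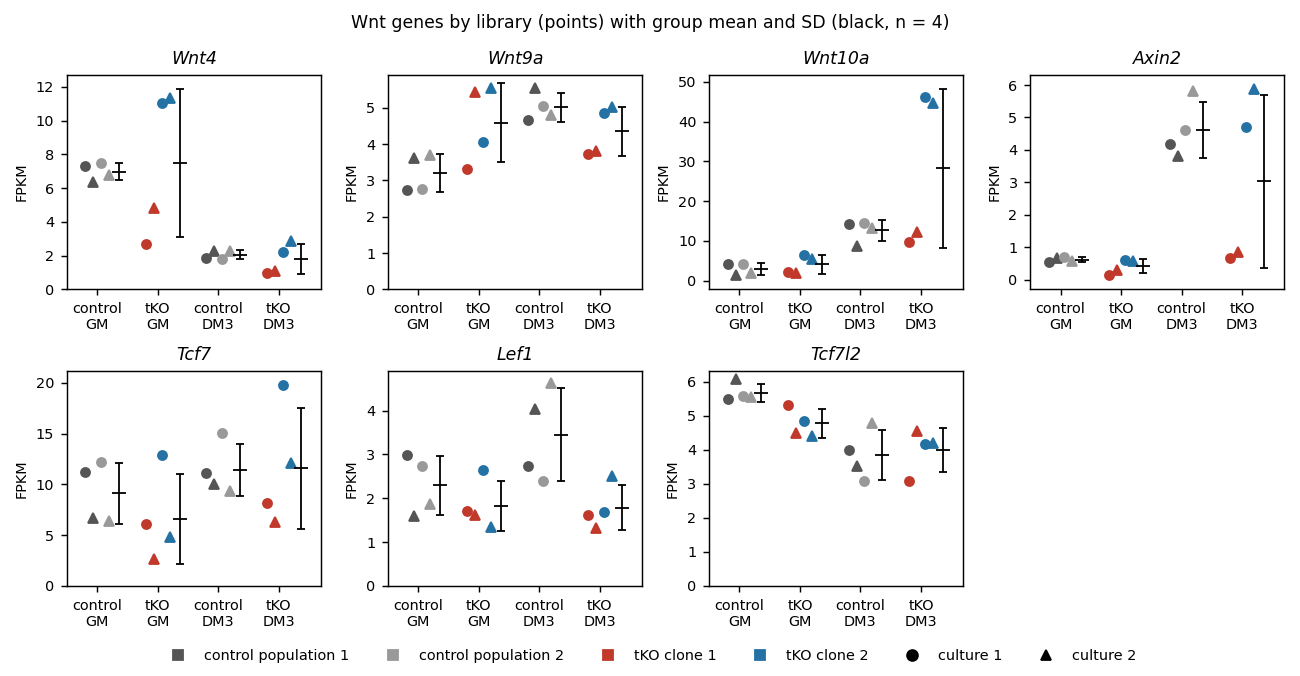
FPKM of the 7 tested Wnt genes (vertical axis, linear, 0 included) in the 4 groups, with 1 point per library, coloured by line and shaped by culture, and the group mean with SD in black (n = 4). In tKO DM3 the Axin2 points of clone 1 lie at 0.658 and 0.865 FPKM and those of clone 2 at 4.71 and 5.87, while Wnt10a of clone 2 lies at 46.1 and 44.8.

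Axin2 (chr11:108920349-108950783) had the largest fold change in mean FPKM among the 7 genes in control cells. In control GM it stood at 0.544 and 0.661 FPKM in population 1 and 0.703 and 0.562 in population 2. In control DM3 it stood at 4.17 and 3.81 FPKM in population 1 and at 4.62 and 5.80 in population 2. The mean rose 7.45-fold with no overlap between the stages (1.78 ± 0.35, adjusted p = 0.00034). In tKO GM clone 1 had 0.150 and 0.301 FPKM, from 19 and 29 fragments, and clone 2 had 0.606 and 0.579, from 81 and 76 fragments. In tKO DM3 clone 1 had only 0.658 and 0.865 FPKM, close to the level of growing controls, and clone 2 had 4.71 and 5.87, within or just above the control DM3 range. The rise over the 4 tKO libraries was called (1.25 ± 0.35, adjusted p = 0.0054), and it averages a 3.38-fold rise in clone 1 and an 8.93-fold rise in clone 2. With the means of each line as units that call was lost (adjusted p = 0.0662).

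Among the factors, Tcf7 and Lef1 encode Tcf/Lef proteins that are also commonly reported targets of the pathway, and Tcf7l2 encodes the member found in most tissues. Tcf7 (chr11:52252371-52283014) was the most abundant of the 10 genes in control GM by mean FPKM, at 11.2 and 6.64 in population 1 and 12.2 and 6.40 in population 2. Control DM3 values were 11.1 and 10.01, and 15.1 and 9.34. The stages overlapped, culture 1 was above culture 2 in every line and stage, and no change was called (0.32 ± 0.36, adjusted p = 0.456). In tKO cells Tcf7 was 6.08 and 2.65 FPKM in clone 1 and 12.9 and 4.78 in clone 2 in GM, and 8.18 and 6.29 and then 19.8 and 12.1 in DM3. The difference of 0.78 ± 0.36 between the tKO stages was not called (adjusted p = 0.0711), but was with median-of-ratios scaling (0.92, adjusted p = 0.0396).

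Lef1 (chr3:131110471-131224356) stood at 2.98 and 1.59 FPKM in control GM population 1 and 2.73 and 1.87 in population 2. In control DM3 it stood at 2.73 and 4.03, and 2.39 and 4.63. The order of the cultures thus turned between the stages: culture 1 was the higher in GM and culture 2 in DM3, in both populations. Within culture 1 the stage difference was −0.12 and within culture 2 it was 0.97, so the pooled 0.42 ± 0.20 (adjusted p = 0.0736) joins unlike cultures. Tcf7l2 (chr19:55741810-55933654) ranged from 5.50 to 6.08 FPKM in control GM (median 5.57) and from 3.09 to 4.79 in control DM3 (median 3.76). It fell in controls (−0.47 ± 0.12, adjusted p = 0.0035). In tKO cells it ranged from 4.40 to 5.32 FPKM in GM and from 3.07 to 4.57 in DM3, and the difference of −0.21 ± 0.12 was not called (adjusted p = 0.150).

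In tKO cells 3 of the 7 genes were called between the stages, Axin2 and Wnt10a higher and Wnt4 lower, where 24.9% of all tested genes were higher and 36.0% lower. The ranges were apart for Axin2 and Wnt10a, which is 2 of the 7, against 49.1% of all tested genes. No gene of the 7 was called in the test of whether the stage change differed between genotypes, which called 0.254% of all genes. Only Wnt9a had an unadjusted p under 0.05 there, and voom on the fragments called 0 of the 7 as well.

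**Figure D2:**
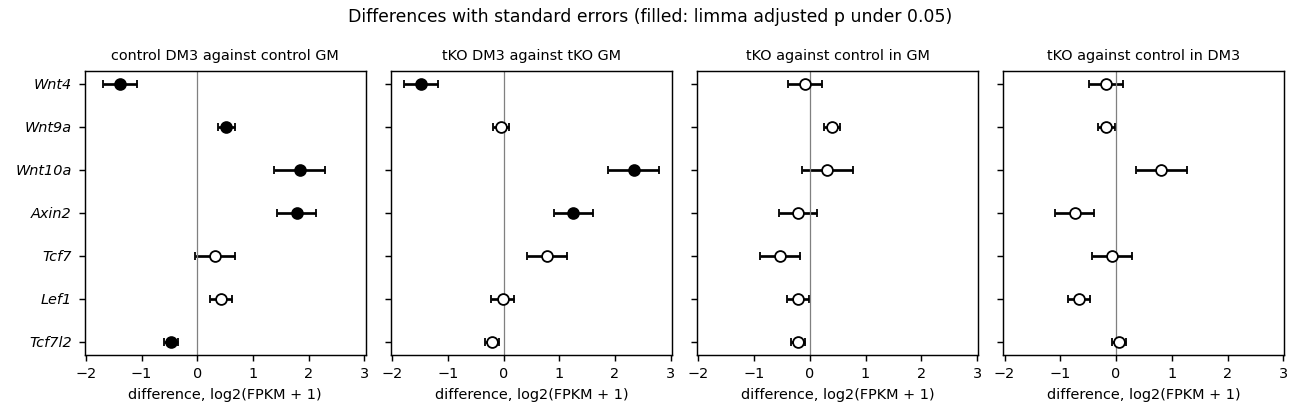
Differences on the log2(FPKM + 1) scale (horizontal axis) with their standard errors for the 7 tested genes in 4 comparisons, where filled points have a limma adjusted p under 0.05. The 2 panels on stage hold 5 and 3 filled points and the 2 panels on genotype hold none.

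The genotype comparison sets the 2 tKO clones against the 2 control populations at each stage. In it, loss of the microRNAs and derivation from single clones cannot be told apart. No tested gene of the 7 was called in GM or in DM3, where limma called 2.06% and 3.38% of all tested genes, and voom on the recovered fragments also called 0 of the 7. Unadjusted p-values were under 0.05 for 1 gene in GM, Wnt9a, and for 2 in DM3, Lef1 and Axin2. In GM the ranges were apart for 1 of the 7, Tcf7l2, and for 1656 of all 11832 tested genes. In DM3 they were apart for 0 of the 7, against 8.52% of all tested genes. Median differences were −0.21 in GM and −0.17 in DM3, against −0.01 and 0.01 over all tested genes.

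Lef1 came nearest to a call. In tKO DM3 it stood at 1.62 and 1.31 FPKM in clone 1 and 1.69 and 2.51 in clone 2, against 2.39 to 4.63 in control DM3. The highest tKO library overlapped the lowest control one only across cultures. Within culture 1 the difference was −0.42 and within culture 2 −0.90, with both clones below both populations each time. The pooled difference was −0.66 ± 0.20 (adjusted p = 0.0820). Without clone 2 it was −0.82 (adjusted p = 0.0390), and without clone 1 −0.50 (adjusted p = 0.302). Of the other tested genes with a seed match, Wnt10a and Tcf7l2 differed by 0.81 and 0.05 in DM3, and neither was called.

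Wnt9a in GM was higher in tKO cells by 0.40 ± 0.15 (adjusted p = 0.161), at 3.31 to 5.55 FPKM against 2.73 to 3.69. Tcf7l2 in GM was 4.40 to 5.32 FPKM in tKO cells, below the 5.50 to 6.08 of the controls in each library, with a difference of −0.21 ± 0.12 (adjusted p = 0.401). In DM3 the difference of Tcf7l2 was 0.05 ± 0.12 (adjusted p = 0.889). Wnt10a in DM3 was higher by 0.81 ± 0.46 (adjusted p = 0.387) and Axin2 lower by 0.74 ± 0.35 (adjusted p = 0.294). For those last 2 genes the tKO mean describes neither clone. Leaving out clone 2 gave −1.66 for Axin2 (adjusted p = 3.55e-05), and leaving out clone 1 gave 0.17 (adjusted p = 0.557). For Wnt10a in DM3 the corresponding values were −0.17 (adjusted p = 0.779) and 1.79 (adjusted p = 0.0039). For Wnt4 in GM the pooled difference was −0.08 ± 0.31 (adjusted p = 0.924), with −0.78 without clone 2 (adjusted p = 0.0133) and 0.61 without clone 1 (adjusted p = 0.0251).

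The clones were therefore compared with each other, in a fit of the 8 combinations of line and stage, a comparison chosen after seeing the data. In GM, clone 2 exceeded clone 1 in Wnt4 by 1.39 ± 0.21 (adjusted p = 0.0079), the only call among the 7 genes, where 0.490% of all tested genes were called higher and 0.237% lower. In DM3, clone 2 exceeded clone 1 in Axin2 by 1.83 ± 0.17 (adjusted p = 0.000146) and in Wnt10a by 1.96 ± 0.34 (adjusted p = 0.0108), 2 of the 7 against 1.24% of all tested genes called higher and 0.786% lower. In mean FPKM these are ratios of 2.97 for Wnt4 in GM, 6.94 for Axin2 in DM3 and 4.12 for Wnt10a in DM3. None of the 7 was lower in clone 2 among the calls, and differences for Wnt4 (0.78, adjusted p = 0.0873) and Tcf7 (1.01, adjusted p = 0.295) in DM3 did not pass. Fitted on the 4 compared libraries alone, none of the 3 calls held (adjusted p = 0.271 for Wnt4, 0.174 for Axin2 and 0.058 for Wnt10a). Leaving out culture 1 of clone 1, or either culture of clone 2, at the stage compared also ended the Wnt4 call (adjusted p = 0.0627 to 0.0727) and the Wnt10a call (adjusted p = 0.0721 to 0.0810), but not that of Axin2.

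The stage change of Axin2 was larger in clone 2 than in clone 1 by 1.45 ± 0.24, with an unadjusted p of 4.99e-05 and an adjusted p of 0.0795. That test of clone by stage called 0% of all tested genes by limma, with 489 genes at an unadjusted p under 0.05, Axin2 alone among the 7. Between the 2 control populations, averaged over the stages, limma called 0% of all tested genes, with 42 at an unadjusted p under 0.05 and none of them among the 7. On that average the control populations differed by −0.01 to 0.17 for these genes. They were not compared within a stage, as the clones were. In DM3 the summed myotube markers followed the culture more than the clone, 1393 against 1437 FPKM in culture 1 and 340.4 against 478.5 in culture 2. Summed levels of 4 myoblast genes were 378.2 and 287.4 FPKM in clone 1 and 154 and 136.7 in clone 2, and those of cycling cells 39.2 and 61.1 against 112.8 and 86.3. Of the 4 myoblast genes Des was the highest, at 80.2 to 312.1 FPKM in tKO DM3, against at most 52.6 for Cdh15. Des was also higher in control DM3 (262.2 to 414.8 FPKM) than in control GM (31.2 to 47.8). The myoblast sum thus does not measure how many myoblasts remained. Summed genes of undifferentiated mesenchymal cells were 1254 and 699.3 FPKM in clone 1 and 1825 and 1408 in clone 2. The part of these differences between the clones in the Wnt values was not tested.

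**Figure D3:**
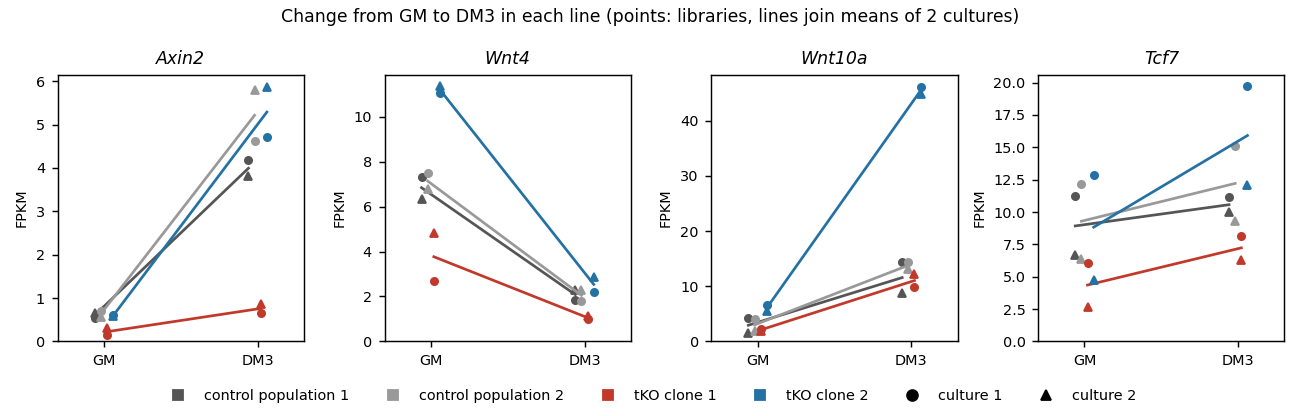
FPKM (vertical axis, linear from 0) of Axin2, Wnt4, Wnt10a and Tcf7 in GM and DM3 for each line, with 1 point per culture and lines joining the means of 2 cultures. Axin2 in clone 1 ends near the level at which the other 3 lines start, and Wnt10a in clone 2 ends at a mean of 45.4 against 11.03 to 13.8 in the other 3 lines.

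The 3 genes under the filter were nearly silent in most libraries. Sfrp2 (chr3:83766321-83774316), a secreted protein that binds Wnt ligands, had 0 to 6 fragments per library in control GM. In control DM3 it stood at 0.209 and 2.30 FPKM in population 1 and 0.376 and 1.41 in population 2, from 16, 261, 24 and 96 fragments. Culture 2 was the higher in both populations. In tKO cells it had 0 to 2 fragments in GM and 0, 0, 1 and 3 in DM3, at or under the floor of 3 fragments, which corresponds to 0.0467 to 0.0540 FPKM in those DM3 libraries. Every control DM3 library was above every tKO DM3 library. With no filter on low values, limma called the rise of Sfrp2 in differentiating controls (0.86, adjusted p = 0.0074) and gave −0.91 for tKO against control in DM3 (adjusted p = 0.0561). Markers of osteoblasts and of fat cells, other lineages that mesenchymal cells can take, stood at 5.29 to 8.53 FPKM and 1.69 to 6.23 FPKM summed in control DM3 and at 4.73 to 5.48 and 0.486 to 4.12 in tKO DM3, and their part was not tested.

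Nkd1 (chr8:88521344-88594887), which binds Dishevelled and dampens the pathway, had 0 fragments in all control GM libraries and 0 to 6 in control DM3. In tKO DM3 clone 1 had 2 and 1 fragments, and clone 2 had 16 and 53, that is 0.134 and 0.395 FPKM. The clone with the higher Axin2 was thus also the only line with Nkd1 above the floor in both differentiated cultures. Without a filter the clone difference in DM3 was 0.31 and not called (adjusted p = 0.0520). Sfrp1 (chr8:23411502-23449632), a close relative of Sfrp2, was listed at 0 in 15 libraries and at 0.0552 FPKM, from 6 fragments, in culture 2 of control population 1 in GM. A count of 0 allows up to 3 fragments, or 0.0121 to 0.0303 FPKM over those libraries, which covers counting error only.

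**Figure D4:**
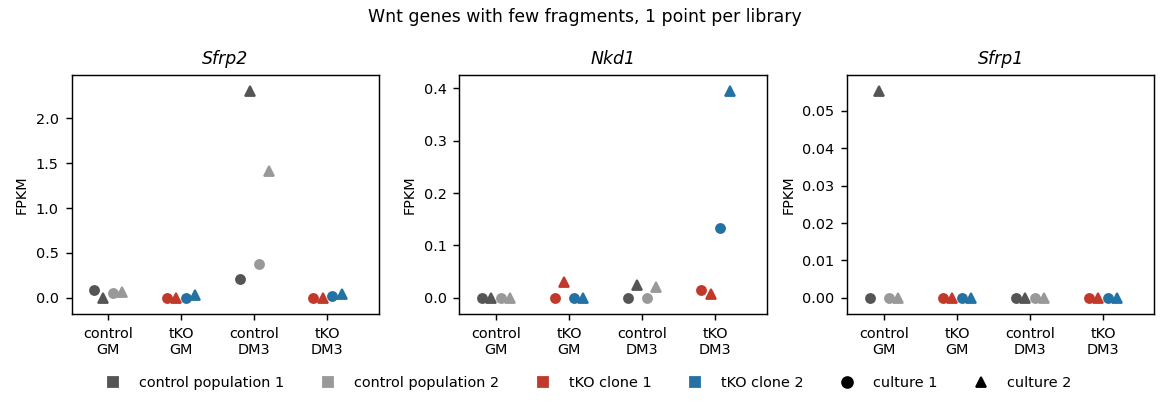
FPKM (vertical axis, linear, with a different range in each panel) of Sfrp2, Nkd1 and Sfrp1 with 1 point per library, coloured by line and shaped by culture. Sfrp2 lies at 0.209 to 2.30 FPKM in control DM3 and at most at 0.0481 in tKO DM3, and Nkd1 reaches 0.134 and 0.395 only in clone 2 in DM3.

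Levels are comparable between genes on the FPKM scale, which is per length. In control GM the order of the means was Tcf7 (9.11), Wnt4 (6.99), Tcf7l2 (5.68), Wnt9a (3.199), Wnt10a (2.97), Lef1 (2.29) and Axin2 (0.618). Among neighbours in that order, the ranges of Tcf7 and Wnt4, Wnt9a and Wnt10a, and Wnt10a and Lef1 overlapped. In control DM3 the order was Wnt10a (12.7), Tcf7 (11.4), Wnt9a (5.01), Axin2 (4.60), Tcf7l2 (3.85), Lef1 (3.44) and Wnt4 (2.07), and only Tcf7 and Wnt9a, and Lef1 and Wnt4, were apart among neighbours. Wnt4 thus passed from the second place to the last of the 7, and Wnt10a from the fifth to the first. Genes whose log2 values most resembled these over the 16 libraries were Zap70 for Axin2 (Pearson r = 0.981), Slco4a1 for Wnt4 (0.962), Myo18b for Wnt10a (0.954), Rbak for Tcf7l2 (0.931), Arhgef3 for Tcf7 (0.922), Vopp1 for Wnt9a (0.880) and Pdk4 for Lef1 (0.863). The 16 points share lines, stages and cultures, so these values only describe likeness.

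The rest of the pathway was followed in 94 further genes, of which 54 passed the filter. In differentiating controls 17 of the 54 were higher and 18 lower, against the 23.2% and 38.3% of all tested genes given above, and 22 and 13 with median-of-ratios scaling. In tKO cells 18 were higher and 18 lower, and 21 and 13 with that scaling. Over the 54 the median difference in controls was −0.02, against −0.15 over all tested genes. Most other ligands were scarce: of 19 Wnt ligands 13 stayed under 1 FPKM in every library. Wnt10b, picked out after its values were seen, was not: its mean was 9.13 FPKM in control GM and 9.48 in tKO GM. Wnt4 had means of 6.99 and 7.48 FPKM there, with ranges that overlapped those of Wnt10b. In DM3 Wnt10b had means of 6.65 FPKM in the controls and 4.465 in the clones. Wnt6, which lies beside Wnt10a (chr1:74771892-74785322), rose in controls from 0.152 ± 0.056 to 1.33 ± 0.12 FPKM (SD, n = 4; 1.01 ± 0.28, adjusted p = 0.0045). In DM3 it stood at 0.256 and 0.436 FPKM in clone 1 and at 3.21 and 2.17 in clone 2, a clone difference of 1.44 ± 0.17 (adjusted p = 0.00076). The neighbouring ligand genes were thus both higher in clone 2 than in clone 1 after differentiation.

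Both genes needed to lipidate and export Wnt ligands rose in differentiating controls, Porcn from 2.80 to 15.3 FPKM (2.14 ± 0.31, adjusted p = 1.89e-05) and Wls from 126.3 to 241.5 (0.93 ± 0.11, adjusted p = 1.67e-06). Of 11 tested receptors and co-receptors 4 rose and 3 fell, against the same 23.2% and 38.3%, with Fzd5 (1.29) and Fzd4 (1.06), which encode Frizzled receptors, changed most. Lgr6, a receptor for R-spondins, which amplify Wnt signals, fell from 13.9 to 18.2 FPKM in control GM to 0.0884 to 0.156 in control DM3 (−3.93 ± 0.45, adjusted p = 2.02e-06). Lgr4, its relative, fell by 1.09. Dvl1 rose by 1.40 and Dvl2 fell by 1.28, both encoding Dishevelled proteins that relay the receptor signal. Tle2, which encodes a co-repressor of Tcf proteins, rose by 0.83, and Bcl9l, which encodes a co-activator of beta-catenin, fell by 0.76. Kremen1, which encodes a receptor for Dkk antagonists, rose by 0.67. Of 6 tested genes reported as targets 2 were called, both lower, where 38.3% of all tested genes were: Fosl1 (−3.004) and Ccnd1 (−2.01), the latter encoding cyclin D1. The summed cycling-cell markers given above were lower in the same cells, and their part was not tested.

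**Figure D5:**
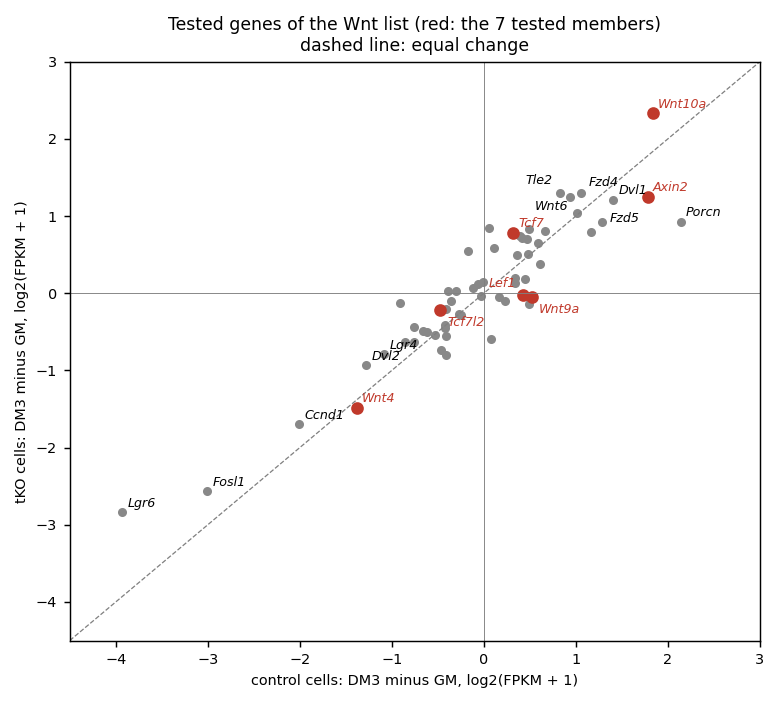
Stage change in tKO cells (vertical axis) against that in control cells (horizontal axis), both as DM3 minus GM on the log2(FPKM + 1) scale, for the 61 tested genes of the Wnt list, the 7 tested members in red. Wnt10a lies at 1.84 and 2.34 and Wnt4 at −1.38 and −1.48, while Wnt9a lies at 0.52 in controls and −0.05 in tKO cells.

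Between genotypes 3 of the 54 further genes were called in GM and 5 in DM3, against the 2.06% and 3.38% of all tested genes given above. Apcdd1, a membrane inhibitor of Wnt signalling, was higher in tKO cells at both stages (0.86 ± 0.16 in GM, adjusted p = 0.0124, and 0.82 ± 0.16 in DM3, adjusted p = 0.0101). Each of these calls was lost in 4 of 31 alternative fits. Ptk7, a co-receptor of planar cell polarity, was lower at both (−1.09 ± 0.12, adjusted p = 4.37e-05, and −0.74 ± 0.12, adjusted p = 0.0019), with every tKO library below every control library of its stage. The DM3 call of Ptk7 was lost in 2 of 32 alternative fits. Rspo2, an R-spondin, was lower at both (−1.02 ± 0.20, adjusted p = 0.0143, and −0.78 ± 0.20, adjusted p = 0.0400), although its GM call was lost in 7 and its DM3 call in 19 of 31 alternative fits. In DM3 Fzd5 (−0.64 ± 0.14, adjusted p = 0.0151) and Csnk1e, a kinase of the pathway (−0.40 ± 0.10, adjusted p = 0.0293), were also lower, with the calls lost in 7 and 13 of 32 alternative fits. Notum, an enzyme that inactivates Wnt ligands and was picked out after its values were seen, stayed under the filter at 0.389 to 0.670 FPKM in control GM and 0.0147 to 0.0720 in tKO GM. With no filter it was lower in tKO cells at both stages (−0.54, adjusted p = 0.0301, and −0.61, adjusted p = 0.0077).

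Between the clones, 2 of the 54 further genes above the filter were called in GM and 4 in DM3. All were higher in clone 2, and 0 were lower. Over all tested genes 58 were higher and 28 lower in GM, and 147 and 93 in DM3. In GM they were Lgr6 (2.36 ± 0.29, adjusted p = 0.0020) and Rspo3, an R-spondin (1.23 ± 0.22, adjusted p = 0.0235). In DM3 they were Rspo3 (1.64 ± 0.22, adjusted p = 0.0020), Wnt6, Nkd2, the relative of Nkd1 (1.79 ± 0.24, adjusted p = 0.0017), and Fzd7 (0.69 ± 0.16, adjusted p = 0.0477), whose call was lost in 19 of 26 alternative fits. With no filter, limma called 2 of 91 further genes higher and 1 lower in GM, and 5 higher and 2 lower in DM3. Over all 23576 genes these calls were 62 and 50, and 175 and 210. The lower ones, picked out after their values were seen, were Bambi in GM (−0.30, adjusted p = 0.0426) and in DM3 (−0.38, adjusted p = 0.0069), and Fzd3 in DM3 (−0.56, adjusted p = 0.0085). Rspo3 stood at 3.53 and 5.07 FPKM in clone 2 in DM3, against 0.325 and 1.15 in clone 1 and at most 0.160 in controls. Its group means were 0.0555 and 0.0946 FPKM in control GM and DM3, and 0.808 and 2.52 in tKO GM and DM3. Rspo3 thus passed the filter only through the tKO libraries, so its being among the tested genes is no separate result. Nkd2 was at 0.0155 and 0 FPKM in clone 1 in DM3, at 1.82 and 3.29 in clone 2 and at 2.84 to 5.75 in controls. In DM3 clone 1 was thus below the controls in the feedback genes Axin2 and Nkd2 and in the ligand Wnt6. Clone 2 was above them in the ligands Wnt10a and Wnt6, while its culture with Nkd2 at 1.82 FPKM was also below them. These genes are named here because they were called between the clones. The amplifier Rspo3 was above the controls in both clones, and more so in clone 2.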

How the data were processed

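RNA-seq of 16 libraries was analysed. The authors deposited 1 table of FPKM values with gene lengths and positions. STAR, DESeq and mm10 are named in the submitters' processing notes, and annotation release, strandedness and versions are not given in the sources used here. FPKM times gene length gave whole fragments for 100.0% of values (tolerance 0.05 fragments), which set depth and the floor of 3 fragments. Groups came from sample titles. A group-means model on log2(FPKM + 1) over all libraries was fitted in limma 3.58.1 (R 4.3.3, trend and robust moderation) for 11832 genes with a mean of at least 0.5 FPKM, and tested on simulated data. The comparisons of clones and of control populations used cells of line and stage and were added after seeing the data. The genes and lists were chosen with earlier results of these data known. Named further genes were every call between genotypes or clones and the 2 largest control stage changes in each role. Others are marked as picked out after their values were seen. Tables and figures used Python 3.11.15, pandas 2.3.3, numpy 2.4.6 and matplotlib 3.10.9. Alternatives were another pseudocount, filters, scalings, replicate blocks, voom, and leaving out libraries or lines. Without known strand, overlapping genes cannot be separated.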

Additional observations from a re-analysis of the deposited data

Results flagged for a closer look

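Each gene was checked within each group of 4 libraries in which it was not at 0 throughout, 36 sets of values in all. In 4 of the 36, all of them in GM, 1 library stood apart from the other 3, with a gap to its neighbour above Dixon's critical value, which chance exceeds in about 1 of 20 sets. In 3 of these 4 the other libraries were all at 0, so the gap is the whole range by construction. Tcf7l2 stood at 6.08 FPKM in control population 1, culture 2, in GM, against 5.50 to 5.58 in the other 3 control GM libraries. In the same library Sfrp1 was at 0.0552 FPKM, from 6 fragments, and listed at 0 in the other 3. Sfrp2 was at 0.0324 FPKM, from 2 fragments, in tKO clone 2, culture 2, in GM, and at 0 in the other 3. Nkd1 was at 0.0307 FPKM, from 3 fragments, in tKO clone 1, culture 2, in GM, and at 0 in the other 3. The last 2 are at or under the floor of 3 fragments.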

How the results depend on the processing

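Among the values of single genes under alternatives, 2075 kept their direction and side of the threshold, 106 lost a call, 28 gained one and 34, all of them without a call at the main setting, changed sign. The 7 genes gave 5 calls for control stage, 3 for tKO stage, 0 for each genotype comparison and the interaction, and 1, 2 and 0 for the clones in GM, in DM3 and by stage. A filter of 5 FPKM tested only 2 of the 7 genes, Wnt10a and Tcf7, so its counts are not out of 7. It gave 1 call for control stage, 1 for tKO stage, 0 for clones in GM and 1 in DM3. Fits of the compared libraries alone left 0 and 0 for the clones. Clone by stage had 1 call with no filter and 1 with median-of-ratios scaling. Without control population 1 the control stage count was 3, and without population 2 it was 2. Without clone 1 the genotype counts were 1 in GM and 1 in DM3, and without clone 2 they were 1 and 2, with 1 for the interaction. Leaving out single libraries gave 0 to 1 for clones in GM and 1 to 3 in DM3.

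Signs turned as follows, and the cause was not tested. Without clone 1, Axin2 stood at 0.19 for the interaction and 0.17 for DM3 genotype, Wnt4 at 0.61 in GM (adjusted p = 0.0251) and 0.20 in DM3, Tcf7 at 0.43 in DM3, and the tKO stage change at 0.072 for Lef1 and 0.043 for Wnt9a. Without clone 2, Wnt10a stood at −0.29 in GM and −0.17 in DM3, Tcf7l2 at −0.014 in DM3 and the Wnt4 interaction at 0.21. Without control population 2, Tcf7 in DM3 was 0.0069. Median-of-ratios scaling gave tKO stage changes of 0.084 for Lef1 and 0.078 for Wnt9a. Leaving out single libraries gave ranges across 0. They were −0.14 to 0.11 for Lef1 and −0.17 to 0.033 for Wnt9a between tKO stages, −0.44 to 0.82 for Tcf7 by clone and stage, −0.35 to 0.15 for Tcf7 and −0.029 to 0.14 for Tcf7l2 by genotype in DM3, −0.32 to 0.26 for Wnt4 by genotype in GM, and −0.44 to 0.14 for the Wnt4 interaction.

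The culture numbers state no pairing. Deviations of same-numbered libraries of the 2 genotypes within a stage correlated at 0.22 on average (−0.22 to 0.56), above 0.1 in 12 of 16 pairs, and 14 of 16 libraries were closest to one of their own number. Fitted with that number as a replicate block, calls were 4 for tKO stage and 3 for clones in DM3, both gaining Tcf7, and the other counts did not move. With the number as a replicate block within each stage, calls were 6 for control stage, 4 for tKO stage, 1 in GM (Wnt9a, 0.40, adjusted p = 0.0443) and 1 in DM3 (Lef1, −0.66, adjusted p = 0.0157) between genotypes, 3 and 4 for the clones in GM and DM3, and 1 for clone by stage (Axin2). Depth limits Sfrp1, Sfrp2 in tKO cells and Nkd1 outside clone 2 in DM3, all at 6 fragments or fewer.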
